A study of Mus musculus with 6 samples.

Results

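Cytoplasmic dynein, its activator dynactin and the adaptors that couple it to cargo were followed as 35 genes out of the 24411 in the deposited tables. They were taken by gene symbol: 10 dynein subunits, 9 dynactin subunits, 3 dynein regulators, 4 mitochondrial adaptors, 5 scaffolds of the JIP and huntingtin kind and 4 activating adaptors. RNA was measured by sequencing in corpus callosum, the fibre tract that joins the cortical hemispheres, from B6 mice on postnatal day 4, in a study of how the RNA modification m6A bears on the transport of mRNA into neurites. Mettl14, which encodes part of the m6A methyltransferase, was the target of the conditional knockout (cKO) group with 3 libraries, and the WT group had 3. The labels name no other allele or agent, and the sources used here do not give the Cre driver or the cells in which Mettl14 was deleted. Nor do they say whether 1 library is 1 animal, and the p-values given here therefore cover the spread among libraries, which may be technical.

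Dynein is the motor that walks towards the minus end of microtubules and so carries cargo from the axon tip to the cell body. The heavy chain holds the motor, the intermediate and light intermediate chains join it to dynactin and to adaptors, and the light chains sit at the base of the tail as dimers. Dynactin is a short filament of actin-related proteins with a projecting arm that touches the microtubule; activating adaptors bind motor and dynactin together on a cargo, and Lis1 with the Nde1 and Ndel1 proteins helps the motor assemble.

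Libraries were shallow. They held 670462 to 1208382 expected counts in cKO and 843647 to 1268430 in WT, and a gene at 0 may hold up to 3 counts, or 2.41 to 4.24 CPM (counts scaled to the library total). Both replicate 2 libraries were the deepest of their group and had shorter fragments, at 292.7 bases in cKO and 304.28 in WT, against 332.4 to 350.46 in the other 4. Mettl14 itself had 2, 7 and 2 counts in cKO and 11, 8 and 5 in WT, too few for the test. Xist, transcribed from the inactive X chromosome, had 2970, 2323 and 4618 counts in cKO and 0 in every WT library. The Y-linked Eif2s3y had 0 in every cKO library and 54, 80 and 51 in WT. The labels give no sex, but by these transcripts sex moves with genotype. A difference by genotype therefore cannot be told apart from a difference by sex for any gene. The samples are labelled as axons, but glial and nuclear RNA was present. Summed markers of oligodendrocytes, the myelin-forming cells, came to 2.00 to 10.8 CPM in cKO and 2552 to 4125 in WT. Of their 6 tested markers (10 listed) 6 were called lower by edgeR at an adjusted p below 0.05, against 0.422% of all genes. Astrocyte markers summed to 2804 to 2927 CPM in cKO and 9885 to 10607 in WT, precursor markers to 546.0 to 1314 in cKO and 3897 to 4562 in WT, and projection neuron markers to 7674 to 9711 in cKO and 2609 to 2872 in WT. By the same test 2 of 9 tested astrocyte markers and 1 of 4 precursor markers were called lower, and 1 of 9 neuron markers higher (0.49% of all genes). The fold changes of all 9 astrocyte and all 4 precursor markers were negative. Those of the 9 neuron markers were positive for 7 and negative for 2. The nuclear RNA list summed to 3392 to 4987 CPM in cKO and 3321 to 5421 in WT. Mobp, Slc32a1, Tmem119, Cldn5 and Neat1 stood at 0 in all libraries. Interneuron markers summed to 29.7 to 643 CPM in cKO and 819 to 1268 in WT, and vessel markers to 90.1 to 222 and 232 to 431. The microglia and nuclear RNA sums overlapped between the groups. The other marker sums move with genotype beside every result that follows, and their part in the results was not tested. In bulk tissue fewer cells of a type and less RNA per cell cannot be told apart.

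No dynein, dynactin or adaptor gene passed the test across all genes. Of the 35 genes 33 had enough counts to be tested, and 0 were called at an adjusted p below 0.05 by edgeR's quasi-likelihood test, against 0.912% of all 5918 genes tested (0.49% higher and 0.422% lower in cKO). The count was also 0 by limma-voom, which called 0.71% of all genes, and by limma on log2(TPM + 1), which called 1.28%. DESeq2, which called 7.34% of all genes, called Dynll2 (adjusted p 0.0281) and Nde1 (adjusted p 0.0427). At an unadjusted p below 0.05 edgeR gave 3 of the 33, or 9.09%, against 12.6% of all genes: 2 higher (background 7.16%) and 1 lower (background 5.41%). The groups did not overlap in CPM for 7 of the 33, or 21.2%, against 19.8% of all genes: 3 with cKO higher (background 10.4%) and 4 with cKO lower (background 9.45%). In TPM the groups did not overlap for 9 of the 33, or 27.3%, against 19.7% of all genes: the same 7 and the scaffolds Mapk8ip1 and Hap1, both lower in cKO. The median log2 fold change of the 33 was 0.03, beside 0.07 over all genes tested, with 18 positive and 15 negative and 23 within 0.5 of 0. With a typical standard error (SE) of 0.48 on the log2 scale, the spread between these libraries limits which changes of a single gene can be called. In counts simulated with the dispersions fitted here, 95 of 5629 tested genes were changed by 1.5 on the log2 scale and 77 by 3. The other 5457 were left unchanged. By edgeR 0 of the 95 and 3 of the 77 (3.9%) were called. An adjusted p depends on how many genes change, so these shares hold for that setting and may differ in the data. A gene that misses the test is therefore not shown to be equal in the groups.

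**Figure D1:**
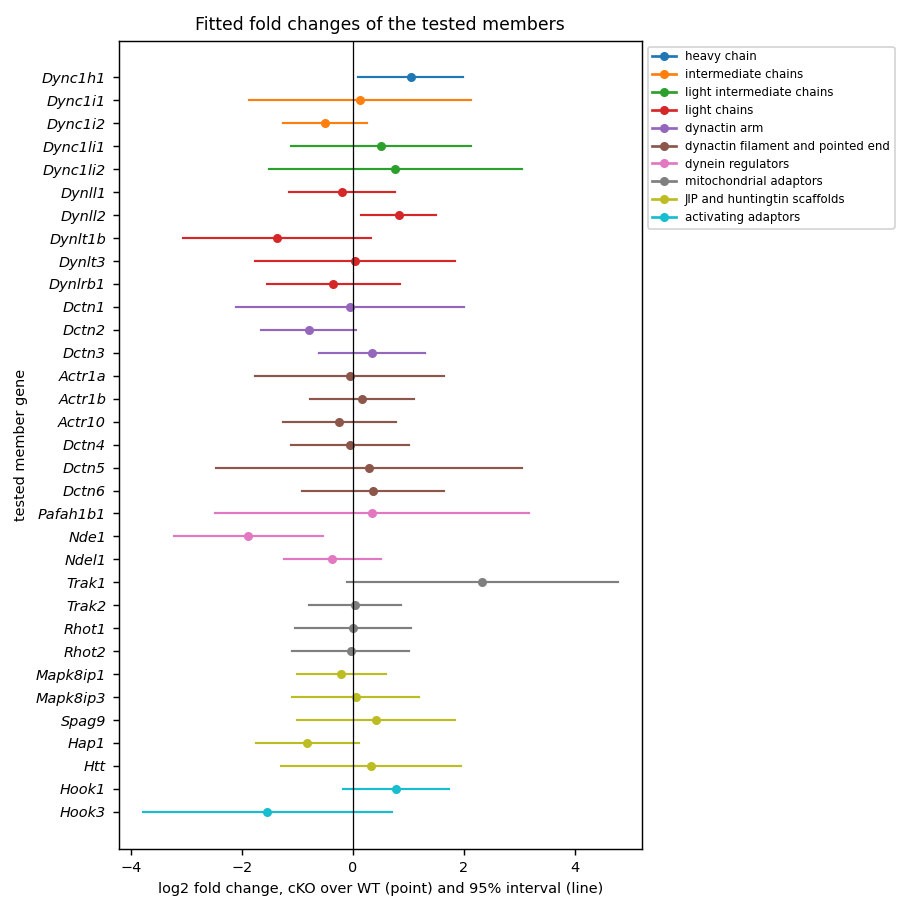
Fitted log2 fold change, cKO over WT (points), with its 95% interval (lines), for the 33 tested genes, coloured by role. Most points lie within 0.5 of 0; Dync1h1, Dynll2 and Nde1 have intervals that leave out 0 before adjustment over all genes.

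Levels per transcript length, in TPM (scaled to transcript length and library), ranged from 1634 for the light chain Dynlrb1 to 0.503 for the adaptor Bicd2 as means over all 6 libraries. After Dynlrb1 came the light chain Dynlt1b at 562.5 TPM, the dynactin arm subunit Dctn3 at 505.9, the intermediate chain Dync1i2 at 431.6 and the scaffold Mapk8ip1 at 378.2. Dynlt1b and Dctn3 changed places between the groups: Dynlt1b averaged 288 ± 178 TPM in cKO and 837 ± 14.3 TPM in WT, and Dctn3 552 ± 80.4 TPM in cKO and 460.1 ± 43.2 TPM in WT (SD, n = 3 each). From Mapk8ip1 through Dynll1 (364.5 TPM) and Dynll2 (348.8) to Actr1a (315.4), neighbours in the order differed by less than the SD of the cKO libraries of each. The motor-bearing heavy chain Dync1h1 stood far lower, at 56.4 TPM, and the activating adaptors lower still, at 4.55 TPM for Hook1, 4.46 for Hook3 and 2.09 for Bicd1. All 35 genes together made 5927, 6331 and 4025 TPM in cKO and 6641, 6781 and 6292 TPM in WT; cKO replicate 3 was the lowest library and cKO replicate 2 lay within the WT range.

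**Figure D2:**
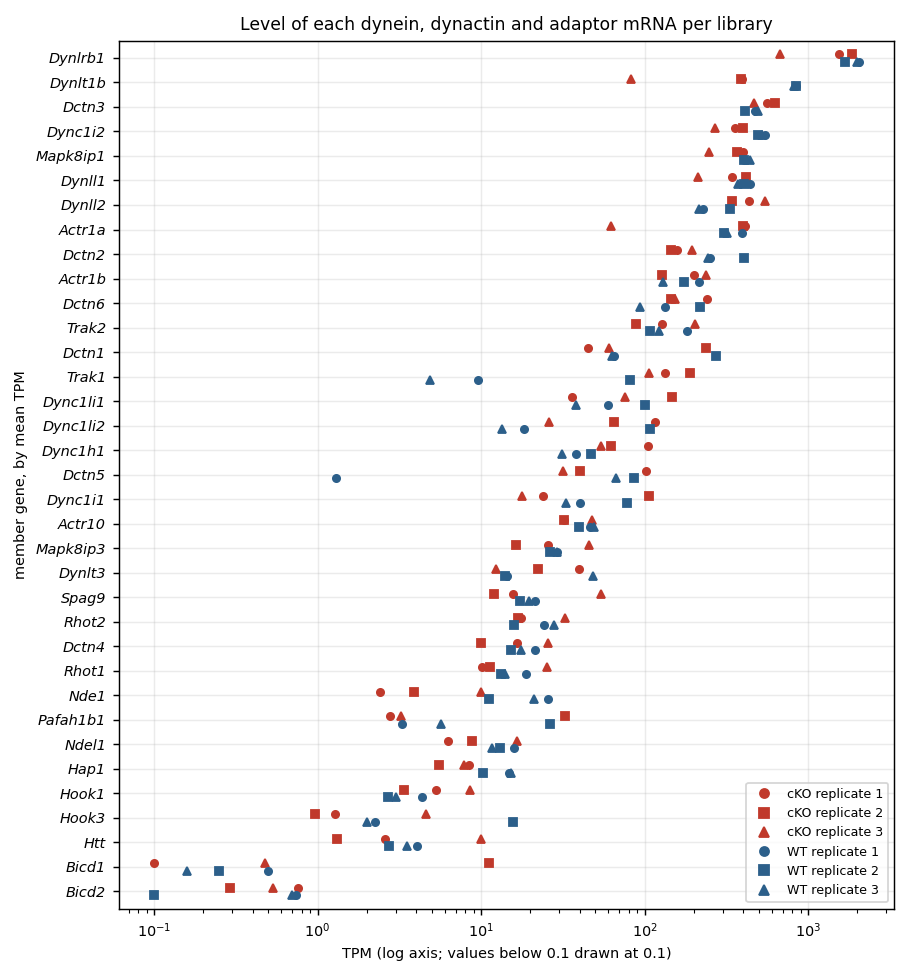
Level of each of the 35 genes in every library, in TPM on a log axis, ordered by the mean over all libraries, with cKO above WT in each row. The genes span from 0.503 to 1634 TPM, and for most of them the cKO and WT points interleave.

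The heavy chain, encoded by Dync1h1 on chromosome 12 (GRCm38, the assembly of mm10, chr12:110601395-110666944, 77 exons), had 1252, 727 and 487 CPM in cKO and 391, 455 and 347 CPM in WT. All 3 cKO libraries lay above all 3 WT libraries, and cKO replicate 1 was the highest by far. The log2 fold change was 1.05 (SE 0.40, 95% interval 0.10 to 1.99), with an unadjusted p of 0.0345 and an edgeR adjusted p of 0.352. Without cKO replicate 1 it was 0.56.

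The intermediate chains carry the binding sites for dynactin and for the light chains. Dync1i2, the main form here, had 674, 752 and 385 CPM in cKO and 878, 758 and 916 CPM in WT. Every cKO library lay below every WT library, though replicate 2 differed little between the groups; the log2 fold change was -0.50 (SE 0.32, edgeR adjusted p 0.604). Dync1i1, the paralog known as the neuronal intermediate chain, had 48.4, 213 and 26.9 CPM in cKO and 70.8, 130 and 62.9 CPM in WT. Replicate 2 was the highest library of each group for Dync1i1, and its fold change was 0.13 (SE 0.84, log2). It made 6.29%, 20.9% and 6.13% of the summed TPM of the pair in cKO and 6.90%, 13.7% and 5.95% in WT, so Dync1i2 supplied most intermediate chain mRNA in all libraries.

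The tables list transcripts separately, and Dync1i2 differed in which forms were counted. A coding exon of 60 bases (exon 5, chr2:71233649-71233708, plus strand, GRCm38) is present in 6 of its 8 listed transcripts and absent from 2. In rat, the form that lacks the alternative segments is widespread, and the longer forms are known chiefly from neurons. The exon is shown in capitals with 15 bases of the neighbouring exons in lower case, since the transcripts with and without it are the ones that differ.
Dync1i2 exon 5: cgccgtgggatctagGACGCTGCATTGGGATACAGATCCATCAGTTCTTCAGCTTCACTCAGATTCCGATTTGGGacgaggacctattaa
Transcripts with this exon carried 79.0%, 72.6% and 76.2% of Dync1i2 TPM in cKO, against 45.01%, 50.8% and 47.1% in WT. The groups did not overlap, and their means were 75.9% ± 3.23 in cKO and 47.7% ± 2.95 in WT (SD, n = 3 each), a difference of 28.3 percentage points. The commonest form without the exon carried 18.3%, 27.4% and 23.8% in cKO and 55.0%, 46.0% and 52.9% in WT. RSEM divides reads among transcripts by estimate, the transcripts also differ at their ends, and no test was made of this share. It is one of 11 genes of the group with at least 2 transcripts and 20 counts in every library, and of these 1, Dync1i2, had groups that do not overlap for its most abundant transcript. That is 9.09%, against 14.6% of the 898 genes in all that met the same limits, or 8.57% with a difference of at least 20 points as well. Dync1i2 was singled out after its values were seen. Of the 41 transcripts of these 11 genes above 0 TPM, 3 had groups that do not overlap, 2 of Dync1i2 and 1 of Spag9. The share over the transcripts of all genes was not worked out, so this count has no background beside it. The 2 of Dync1i2 are shares of the same gene, 1 higher and 1 lower in cKO, and are not separate results. The Spag9 transcript carried 0%, 1.67% and 0.0185% of its gene's TPM in cKO and 32.8%, 86.5% and 76.4% in WT. It shares its annotated counterpart with another listed Spag9 transcript. That transcript carried 73.3%, 0.833% and 56.9% in cKO and 17.6%, 13.5% and 0% in WT, and its groups overlapped. The bases that set these transcripts apart are not resolved here, so a switch between Spag9 forms is not shown.

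**Figure D3:**
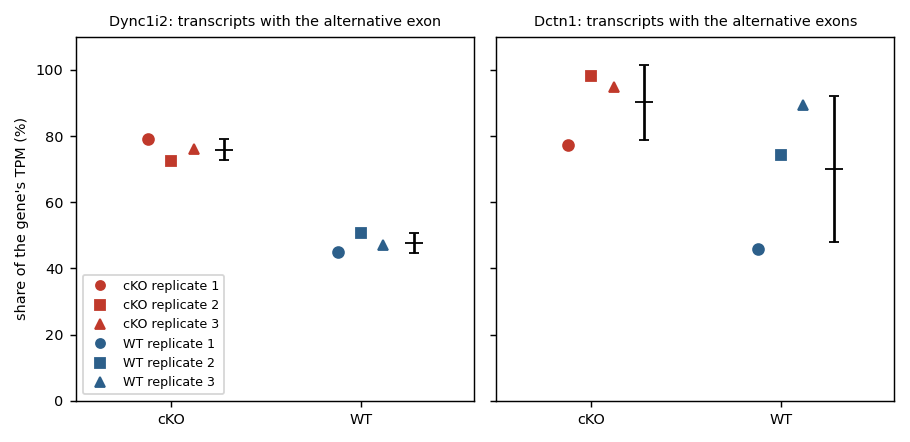
Share of each gene's TPM (%) on transcripts that hold the alternative exon of Dync1i2 (left) or exons 5 to 7 and 27 of Dctn1 (right), in every library, with mean and SD beside the points (n = 3 each). For Dync1i2 the cKO libraries lie between 72.6% and 79.0% and the WT libraries between 45.01% and 50.8%; for Dctn1 the groups overlap.

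The light intermediate chains, which bind the coiled coils of activating adaptors, varied more between replicates than between groups. Dync1li1 had 51.1, 212 and 82.0 CPM in cKO and 74.1, 119 and 51.2 CPM in WT (log2 fold change 0.50, SE 0.68). Dync1li2 had 421, 232 and 70.7 CPM in cKO and 57.3, 321 and 45.4 CPM in WT (0.77, SE 0.96). For Dync1li2, cKO replicate 1 and WT replicate 2 were high, and without both replicate 2 libraries the log2 fold change was 2.27. Of its exonic bases 7.08% overlap a transcript on the opposite strand, whose reads the unstranded kit cannot tell apart.

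Light chains differed among themselves in direction. Dynll2, one of the pair of LC8 light chains that also serve many partners besides dynein, lies on chr11:87979525-88003817 and had 787, 618 and 736 CPM in cKO and 353, 492 and 363 CPM in WT. All cKO libraries were above all WT libraries, and the log2 fold change was 0.83 (SE 0.28, 95% interval 0.151 to 1.499, unadjusted p 0.0233, edgeR adjusted p 0.294). Its paralog Dynll1 had 487, 595 and 228 CPM in cKO and 538, 472 and 496 CPM in WT, with overlapping groups and a log2 fold change of -0.20 (SE 0.40). Dynll1 made 44.0%, 54.9% and 28.3% of the pair's TPM in cKO and 65.9%, 54.9% and 63.4% in WT. The difference in mean share rested on replicates 1 and 3, while the replicate 2 libraries of the groups nearly coincided (two-sided exact permutation p = 0.2, 0.4 adjusted over 10 pairs).

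Dynlt1b, a Tctex-type light chain, had 145, 154 and 22.6 CPM in cKO and 274, 273 and 286 CPM in WT. The WT libraries lay close together and all cKO libraries below them, with replicate 3 the lowest; the log2 fold change was -1.37 (SE 0.71, edgeR adjusted p 0.501). Dynlt1b is one of several near-identical copies on chromosome 17 whose reads RSEM splits by estimate. Summed over Dynlt1a, Dynlt1b, Dynlt1c and Dynlt1f, the counts were 168, 339 and 22.3 in cKO and 378, 506 and 371 in WT, and cKO replicate 3 was the lowest for the family as for Dynlt1b. The X-linked Dynlt3 had 60.5, 34.0 and 14.1 CPM in cKO and 19.1, 17.7 and 69.8 CPM in WT (log2 fold change 0.03, SE 0.76). Dynlrb1, a roadblock light chain and the most abundant mRNA of the group, had 471, 618 and 157 CPM in cKO and 556, 457 and 579 CPM in WT (-0.35, SE 0.51). For Dynlt1b, Dynlt3 and Dynlrb1 cKO replicate 3 was the lowest of all libraries. The 5 light chains summed to 2434 ± 797.1 TPM in cKO and 3437 ± 149.8 TPM in WT (SD, n = 3 each). All cKO libraries lay below all WT libraries (two-sided exact permutation p = 0.1, 0.2 adjusted over all role sums). The difference between the group means of log2 sums was -0.56 in TPM and -0.25 without cKO replicate 3; in CPM, where longer transcripts count for more, it was -0.08. All 10 dynein subunits together came to 3399, 3798 and 1970 TPM in cKO and 4277, 4105 and 4096 TPM in WT. These TPM sums did not overlap, cKO replicate 3 was far the lowest, and the light chains make most of them. By role in TPM, the intermediate and light chains were lower in cKO, the light intermediate chains overlapped, and the heavy chain was higher. No sum over the 10 is given in CPM, where the heavy chain and Dynll2 were higher in every cKO library. The TPM sums therefore do not show that dynein mRNA as a whole was lower in cKO.

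In dynactin, the arm subunit Dctn1 encodes p150Glued, which binds microtubules and the dynein intermediate chain (chr6:83165909-83200118). Dctn1 had 145, 762 and 149 CPM in cKO and 181, 722 and 193 CPM in WT. The replicate 2 library of each group was several times higher than its fellows, and the groups covered nearly the same range, with a log2 fold change of -0.05 (SE 0.86). Dctn2, the dynamitin subunit that anchors the arm, had 210, 193 and 195 CPM in cKO and 291, 445 and 304 CPM in WT. All cKO libraries were lower and lay close together; the log2 fold change was -0.80 (SE 0.36, edgeR adjusted p 0.433). Dctn3, the p24 subunit beside it, had 294, 346 and 184 CPM in cKO and 219, 186 and 246 CPM in WT (0.34, SE 0.40).

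Dctn1 also has alternative coding exons, shown because the listed transcripts differ in them. Exons 5 to 7 encode a basic stretch that follows the microtubule-binding CAP-Gly domain. They lie at chr6:83183936-83183956, chr6:83186428-83186445 and chr6:83187764-83187784, and exon 27 at chr6:83197319-83197333, all on the plus strand of GRCm38; alternative exons are in capitals and flanking exons in lower case.
Dctn1 exons 5 to 7: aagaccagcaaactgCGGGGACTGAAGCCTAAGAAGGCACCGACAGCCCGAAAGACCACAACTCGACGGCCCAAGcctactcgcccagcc
Dctn1 exon 27: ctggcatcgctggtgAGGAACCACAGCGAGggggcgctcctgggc
Transcripts with these exons carried 77.4%, 98.2% and 94.9% of Dctn1 TPM in cKO and 46.0%, 74.4% and 89.5% in WT. The groups overlapped, with WT replicate 3 above cKO replicate 1, and WT spread over more than the difference in means of 20.2 points.

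The groups of all 6 filament and pointed-end subunits of dynactin overlapped in CPM and in TPM, and all had log2 fold changes within 0.5 of 0. Actr1a, which encodes the actin-related protein Arp1 of the filament, had 838, 803 and 94.8 CPM in cKO and 692, 510 and 605 CPM in WT; cKO replicate 3 lay far below all other libraries (log2 fold change -0.06, SE 0.72). Its paralog Actr1b had 294, 188 and 260 CPM in cKO and 272, 211 and 178 CPM in WT (0.17, SE 0.40). Actr10, the Arp11 subunit of the pointed end, had 99.5, 98.1 and 112 CPM in cKO and 125, 100.4 and 142 CPM in WT (-0.25, SE 0.43). These libraries overlapped in each case. Dctn4, a p62 subunit, had 47.1, 28.03 and 55.2 CPM in cKO and 52.8, 35.3 and 46.6 CPM in WT (-0.05, SE 0.45). Dctn5, a p25 subunit, had 102, 41.0 and 24.1 CPM in cKO and 1.12, 72.3 and 62.9 CPM in WT (0.29, SE 1.16), where WT replicate 1 rests on 1 count. Dctn6, a p27 subunit, had 168, 105 and 80.6 CPM in cKO and 80.9, 131 and 62.9 CPM in WT (0.36, SE 0.54); 11.8% of its exonic bases overlap an opposite-strand gene. Dctn4, Dctn5 and Dctn6 overlapped between groups as well. All 9 dynactin subunits together made 1769, 1760 and 1277 TPM in cKO and 1605, 1925 and 1473 TPM in WT, with cKO replicate 3 the lowest library.

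Among the regulators, the groups did not overlap for Nde1 alone. Nde1, a coiled-coil protein that holds Lis1 and dynein together and is best known from dividing neural progenitors (chr16:14163275-14192928), had 2, 5 and 7 counts in cKO and 24, 15 and 23 counts in WT. In CPM these are 2.69, 5.005 and 9.90 in cKO and 27.0, 12.05 and 26.8 in WT, without overlap, and the lowest cKO value lies near the limit of 3 counts. The log2 fold change was -1.88 (SE 0.57, 95% interval -3.23 to -0.54, unadjusted p 0.0130, edgeR adjusted p 0.245). Beside it, summed cycling markers were 75.0 to 298 CPM in cKO and 399 to 668 CPM in WT; their part in the Nde1 result was not tested. The paralog Ndel1, which acts in the same way and persists in postmitotic neurons, had 10.8, 15.01 and 21.2 CPM in cKO and 23.6, 18.5 and 18.6 CPM in WT (-0.37, SE 0.37). Nde1 made 27.8%, 30.6% and 37.8% of the summed TPM of Nde1 and Ndel1 in cKO and 61.7%, 46.2% and 64.3% in WT. This was the only one of 10 pairs tested whose groups did not overlap. The two-sided exact permutation p was 0.1, the smallest that 3 against 3 allows, and 0.4 adjusted over the 10 pairs. No share over other gene pairs was worked out, so this count has no background beside it. The share rests on the same few Nde1 counts as the fold change and is not a separate result. Pafah1b1, which encodes Lis1, had 12.1, 141 and 11.3 CPM in cKO and 12.4, 94.0 and 23.3 CPM in WT (0.35, SE 1.19), with replicate 2 the high library of each group.

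**Figure D4:**
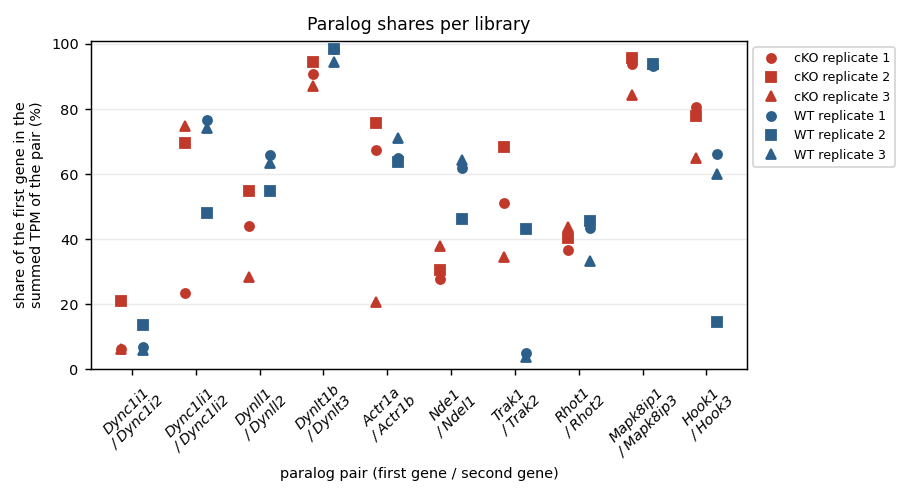
Share of the first gene in the summed TPM of 10 paralog pairs (%), per library, cKO to the left of WT for each pair. The Nde1 and Ndel1 pair is the one whose groups do not overlap, at 27.8% to 37.8% in cKO and 46.2% to 64.3% in WT.

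The mitochondrial adaptors included the largest fold change of the 33 genes. Trak1, which links mitochondria to kinesin-1 and dynein and is concentrated in axons (chr9:121297502-121474919), had 512, 721 and 310 CPM in cKO and 31.5, 255 and 17.5 CPM in WT. All cKO libraries were higher, and WT replicate 2 lay between the other WT libraries and the cKO group. The log2 fold change was 2.34 (SE 1.03, 95% interval -0.11 to 4.78, unadjusted p 0.0584, edgeR adjusted p 0.426). Without WT replicate 2 it was 4.39 (adjusted p 0.0852) and without both replicate 2 libraries 4.07 (adjusted p 0.168). Summed projection neuron markers were also higher in every cKO library, as given above; their part in the Trak1 result was not tested.

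Trak2, the paralog associated more with dendrites, had 639, 435 and 767 CPM in cKO and 776, 437 and 572 CPM in WT (log2 fold change 0.04, SE 0.35), and the groups overlapped. Trak1 made 51.0%, 68.2% and 34.4% of the pair's TPM in cKO and 4.99%, 43.1% and 3.81% in WT (two-sided exact permutation p = 0.2, 0.4 adjusted over 10 pairs), so WT replicate 2 reached into the cKO range. Rhot1 and Rhot2 encode the Miro GTPases that anchor the Trak proteins to the mitochondrial outer membrane. Rhot1 had 33.6, 36.0 and 60.8 CPM in cKO and 51.7, 35.3 and 43.1 CPM in WT (0.00, SE 0.44). Rhot2 had 36.3, 35.03 and 50.9 CPM in cKO and 43.8, 27.3 and 54.7 CPM in WT (-0.04, SE 0.44), and 29.4% of its exonic bases overlap another gene on the same strand. Both Miro mRNAs were thus mixed between the groups. The 4 genes summed to 322 ± 41.2 TPM in cKO and 207 ± 33.7 TPM in WT (SD, n = 3 each), a sum that Trak1 moves. The two-sided exact permutation p of this sum was 0.1, and 0.2 adjusted over all role sums.

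The groups of all 5 scaffolds overlapped in CPM, but not those of Mapk8ip1 and Hap1 in TPM. Mapk8ip1 (JIP1), which can bind kinesin-1 and dynactin, had 878, 804 and 413 CPM in cKO and 764, 740 and 913 CPM in WT (log2 fold change -0.21, SE 0.34); in TPM it had 399, 369 and 249 in cKO and 403, 407 and 442 in WT, where cKO replicate 1 lay just under the lowest WT library. Mapk8ip3 (JIP3), needed for lysosome transport in axons, had 113, 70.1 and 151 CPM in cKO and 110, 94.0 and 119 CPM in WT (0.05, SE 0.48); 10.7% of its exonic bases overlap a same-strand neighbour. Spag9 (JIP4) had 88.7, 67.1 and 231 CPM in cKO and 106, 78.7 and 104 CPM in WT (0.42, SE 0.60). For Mapk8ip3 and Spag9 cKO replicate 3 was the highest library, and for Mapk8ip1 it was the lowest. Hap1, the huntingtin-associated protein, had 20.2, 13.0 and 14.1 CPM in cKO and 30.3, 20.1 and 33.8 CPM in WT, where 1 cKO library lay just above the lowest WT library (-0.82, SE 0.39, edgeR adjusted p 0.456). In TPM Hap1 had 8.48, 5.51 and 7.88 in cKO and 14.8, 10.3 and 15.1 in WT, with all cKO libraries lower. The 5 scaffolds summed to 452, 404 and 367 TPM in cKO and 472, 464 and 510 TPM in WT, without overlap. The two-sided exact permutation p was 0.1, and 0.2 adjusted over all role sums. Mapk8ip1 made most of this TPM sum, and its groups overlapped in CPM. No sum over the 5 is given in CPM. Htt, which encodes huntingtin, had 28.2, 14.0 and 82.0 CPM in cKO and 38.2, 24.1 and 36.1 CPM in WT (0.33, SE 0.68).

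Activating adaptors had low levels per length, and the Bicd genes were mostly at or under 3 counts. Bicd1 had 0, 86 and 2 counts in cKO and 3, 2 and 1 counts in WT, and its cKO total comes from replicate 2. Bicd2, the paralog that recruits dynein to Golgi and nuclear envelope, had 2, 1 and 1 counts in cKO and 2, 0 and 2 counts in WT; neither gene was tested. Hook1 had 17.5, 11.01 and 21.2 CPM in cKO and 12.4, 7.23 and 9.31 CPM in WT (log2 fold change 0.77, SE 0.40, edgeR adjusted p 0.501). Hook3 had 13.5, 10.01 and 36.8 CPM in cKO and 20.2, 134 and 19.8 CPM in WT (-1.54, SE 0.95), and its sign rests on WT replicate 2: without that library the log2 fold change was -0.02, and without both replicate 2 libraries 0.33. The Hook proteins tie dynein to early endosomes, and their levels overlapped between groups. Hook1 made 80.7%, 77.8% and 64.9% of the summed TPM of Hook1 and Hook3 in cKO and 66.2%, 14.7% and 60.2% in WT, where WT replicate 1 lay above cKO replicate 3.

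Part of the spread of these genes ran along the replicate 2 libraries, as it did for a similar share of all genes. In a fit of these 2 libraries against the other 4 with genotype as a term, chosen after the data were seen, Dctn1 was higher by 2.17 (SE 0.28, edgeR adjusted p 0.0380) and Pafah1b1 by 3.00 (SE 0.46, adjusted p 0.0478), both on the log2 scale. That is 2 of 33 genes called, against 1.94% of all genes called there and 1.93% called higher. Both replicate 2 libraries lay above or below all the other libraries for 10 of 33 genes, or 30.3%, against 27.3% of all genes. Dctn1, Pafah1b1, Dync1i1 and Dync1li1 were the 4 higher there (background 16.0%), and Dctn4, Trak2, Rhot2, Mapk8ip3, Spag9 and Htt the 6 lower (background 11.3%). Depth and fragment length move with the same libraries, and their part in this was not tested.

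**Figure D5:**
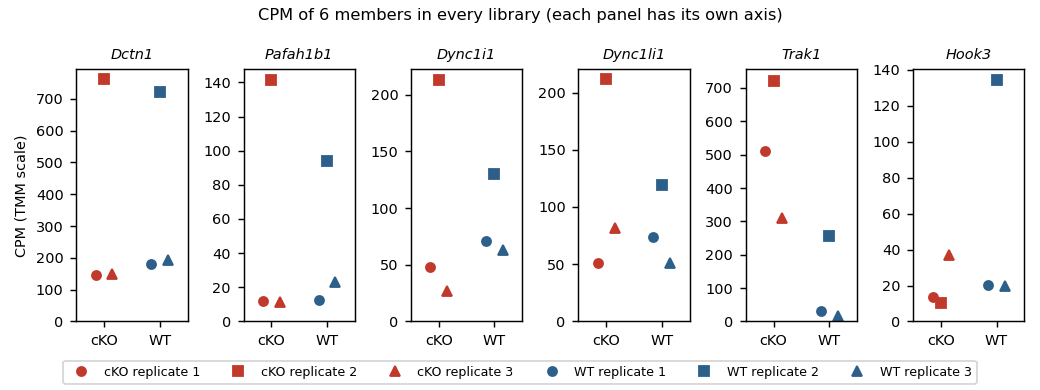
CPM of Dctn1, Pafah1b1, Dync1i1, Dync1li1, Trak1 and Hook3 in every library, cKO left of WT, each panel with its own axis from 0. The replicate 2 squares are the highest of their group for Dctn1, Pafah1b1, Dync1i1, Dync1li1 and Trak1 in both genotypes, and for Hook3 in WT.

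Further genes of the transport pathway were not called either. Of 56 listed genes of kinesin partners, other dynein genes and retrograde cargo, 39 were tested and 0 were called by edgeR, against the 0.912% of all genes; 7, or 17.9%, had an unadjusted p below 0.05, against 12.6% of all genes. Their groups did not overlap in CPM for 10, or 25.6%, against 19.8% of all genes. Their median log2 fold change was -0.03. The 4 with the smallest p were Ntrk2, Kif1a, Kif3b and Mapre2. Ntrk2, the receptor for BDNF that is carried back in signalling endosomes, had 53.8, 29.0 and 36.8 CPM in cKO and 248, 125 and 141 CPM in WT (log2 fold change -2.10, SE 0.54, adjusted p 0.200). Kif1a, a kinesin-3 motor of synaptic vesicle precursors, had 3607, 2767 and 5043 CPM in cKO and 7391, 5615 and 7286 CPM in WT (-0.83, SE 0.24, adjusted p 0.238). Both were lower in every cKO library than in any WT library. Kif3b, a kinesin-2 motor, had 26.9, 149 and 28.3 CPM in cKO and 13.5, 11.2 and 10.5 CPM in WT (2.53, SE 0.79, adjusted p 0.263). Mapre2, a protein that tracks microtubule plus ends, had 624, 164 and 41.0 CPM in cKO and 39.3, 34.5 and 37.2 CPM in WT (2.90, SE 0.97, adjusted p 0.279). In both of these 1 cKO library stood far above the other 2.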

How the data were processed

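RNA-seq of corpus callosum, 3 cKO and 3 WT libraries, was deposited as 1 RSEM table of transcripts per library. The submitters' processing notes name STAR 2.7.10b, RSEM 1.3.3 and build mm10; the sources used here give no annotation release, strand setting or filter. Per the labels' protocols, the tract was cut by hand from frozen sections and polyadenylated RNA was made into libraries with an unstranded kit. The deposited expected counts, per the file headers, are RSEM's estimates of fragments for each transcript, often not whole. TPM, also deposited per the file headers, divides by transcript length and scales to the library; the other deposited column used, effective length, served only to read fragment length.

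Expected counts and TPM were summed per gene; counts were rounded and tested with edgeR 4.0.16 in R 4.3.3 (quasi-likelihood, TMM, filterByExpr with a minimum count of 10), cKO against WT over 6 libraries, with Benjamini-Hochberg adjustment over 5918 genes. CPM uses the TMM scale, where 3 counts are the limit that a count of 0 allows; such limits cover counting error only. The SE was taken from the fold change and the F statistic, so it restates the p-value. Paralog shares, and the TPM sums over the genes of each role (subunit type or adaptor kind), had exact permutation tests. Symbols were matched to RefSeq (24161 by accession, 157 by symbol, 93 unmatched), and exons and sequences were read from GENCODE for GRCm38, paired to the deposited transcripts by GENCODE's RefSeq table. No 2 libraries agreed within counting noise.

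Genes, lists and tests were chosen with earlier results of these data known. All 35 genes are named; of the pathway lists, those called and up to 4 with the smallest p; of the marker lists, sums and defining markers. The edgeR fit was also run on simulated data, where few of the changed genes were called, as given above. Other settings tried were upper-quartile and RLE scaling, 2 filters, DESeq2 1.42.0, limma 3.58.1 (voom, and log2(TPM + 1)), a replicate block, a replicate 2 batch term, genes with more than 3 exons, and leaving out libraries; the fit of replicate 2 against the other libraries was added after seeing the data.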

Additional observations from a re-analysis of the deposited data

How the results depend on the processing

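The number of genes called over the whole table was 54 and moved with the method. It was 22 without a filter, 22 with a filter of 1 CPM in 3 libraries, 429 with DESeq2, 1 with the replicate number as a block, 19 with a replicate 2 batch term, 35 over genes with more than 3 exons, and 0 by edgeR without both replicate 2 libraries (740 at an unadjusted p below 0.05). Leaving out 1 library at a time gave 0 to 42: 0 by edgeR without WT replicate 3 (573 at an unadjusted p below 0.05) or cKO replicate 1 (591), 1 without WT replicate 1, 10 without cKO replicate 2, 21 without WT replicate 2 and 42 without cKO replicate 3. Of the dynein, dynactin and adaptor genes, DESeq2 called 2 and each of the other alternatives 0. Those at an unadjusted p below 0.05 numbered 0 to 5 as single libraries were left out, and were 0 when WT replicate 1, cKO replicate 1 or WT replicate 3 was missing. Hook3 turned to 0.33 (log2) without both replicate 2 libraries. Of 559 fold changes under 17 alternatives, 539 stayed within 1 SE, and sign changed in 70, in 21 of 33 genes; in 1 of these the value first given exceeded its SE. With upper-quartile scaling the median log2 fold change was -0.22 over all genes and -0.30 over the 33. Same-numbered libraries correlated in their deviations from group means with r of 0.06, 0.46 and 0.16. The replicate 2 libraries correlated best with each other, but WT replicate 1 did so with cKO replicate 3 (0.20). Deviations from a mean of 3 libraries cancel within the group, which ties these values together. They therefore do not settle whether the numbers pair the libraries. Depth limits genes with few counts, such as the Bicd genes and Nde1, and the transcript shares.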
